A study of Mus musculus with 6 samples.

Results

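Calb2, which encodes the calcium-binding protein calretinin, was examined together with Eomes and Lmx1a, 2 transcription factor genes that mark unipolar brush cells of the cerebellum. These 3 genes were taken by symbol out of 46983 genes counted, with Calb2 chosen by its measured difference in read counts between the groups and the others because they mark a cell type rich in calretinin. Whole cerebellum RNA was sequenced from 6 C57BL/6J mice at postnatal day 60, with 1 library per mouse. The 3 mice labelled WT were Tie2-Cre Slc7a5 fl/+, and the 3 labelled Slc7a5-KO were Tie2-Cre Slc7a5 fl/fl. All 6 animals therefore carried the Cre transgene and at least 1 floxed allele. Slc7a5 encodes LAT1, a carrier of large neutral amino acids, and the Tie2 promoter drives Cre in endothelial and blood cells, not in neurons.

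Calretinin belongs to the EF-hand proteins, which buffer and sense calcium inside cells. In the rodent cerebellum it is found in granule neurons and their parallel fibres, in Lugaro cells, and most strongly in a subset of unipolar brush cells. Unipolar brush cells are excitatory interneurons of the granular layer, densest in the vestibular lobules, that receive a mossy fibre on a brush-like dendrite and relay it to granule neurons. Eomes (also called Tbr2) and Lmx1a are transcription factors used to recognise them in the adult, whichever subset they belong to. Other unipolar brush cells lack calretinin.

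Library depth ran from 13438182 to 34160856 gene reads, and levels are given as CPM (read counts scaled to library size) with TMM scaling factors. Slc7a5 itself did not bear out the labels, since its range was 43.2 to 71.9 CPM in WT and 59.3 to 164 CPM in the other group, so group names below are those of the labels. Most cerebellar cells lie outside the Tie2 lineage and the deleted exons are not given, which limits this check. The libraries labelled Slc7a5-KO replicates 1 and 3 and WT replicate 2 came from females by Xist and Y-linked reads, and the other 3 from males. Slc7a5-KO replicate 2 held little choroid plexus, with the summed level of 15 marker genes at 294 CPM against 3554 to 8052 CPM in the other 5 libraries. The cerebellum itself was well represented, as the 20 granule neuron markers summed to 5142 to 8147 CPM in every library. Fold changes are edgeR log2 values with standard errors, and a gene was called at an adjusted p under 0.05 over the 16851 genes tested.

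Calb2 was higher in each library labelled Slc7a5-KO than in any WT library. WT replicates 1 to 3 had 237, 291 and 262 CPM. Slc7a5-KO-labelled replicates 1 to 3 had 844, 421 and 551 CPM. The groups did not overlap, with Slc7a5-KO above WT, as was the case for 5.92% of all genes tested. The 3 WT libraries lay within 1.23-fold of each other and the other 3 within 2.01-fold, with Slc7a5-KO replicate 1 the highest. Group means were 263 ± 27.4 CPM in WT and 605 ± 217 CPM in Slc7a5-KO (SD, n = 3 each), a 2.30-fold difference. Counts behind these values were 7229 to 27284 reads per library, so counting error was small beside the spread between animals.

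The log2 fold change of Calb2 was 1.20 ± 0.21, and with an edgeR adjusted p of 0.068 it was not called. The fit called 8 genes, all higher (0.0475% of those tested), and none of the 3 genes described here was among them. Calb2 passed when Slc7a5-KO replicate 2 was left out (1.40, edgeR adjusted p = 0.00027) and when replicate 1 was (0.88, edgeR adjusted p = 0.019). Leaving out any 1 of the WT replicates or Slc7a5-KO replicate 3 gave 1.13 to 1.28, which did not pass (edgeR adjusted p of 0.15 to 0.52). The authors' deposited table listed Calb2 among 131 genes past an adjusted p of 0.05 (0.9% of those with a value). Its adjusted p there was 0.020, with a log2 value of 0.68 shrunken towards 0 and 1.20 unshrunken. Calb2 was selected for this difference in the same libraries, so these values describe it and give it no independent support.

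Females and males were unevenly spread over the groups, and Calb2 was higher in females within each group. The female WT library had the highest of the WT levels, and the male Slc7a5-KO library the lowest of that group. Among females, Calb2 stood at 291 CPM in 1 WT library and at a mean of 698 CPM in the 2 labelled Slc7a5-KO, a 2.39-fold difference. Among males, it stood at a mean of 249 CPM in 2 WT libraries and at 421 CPM in 1 labelled Slc7a5-KO, a 1.69-fold difference. A fit with sex as a term gave a log2 value of 1.01 (edgeR adjusted p = 0.027). Since the groups did not overlap, a higher level in both sexes was fixed in advance.

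**Figure D1:**
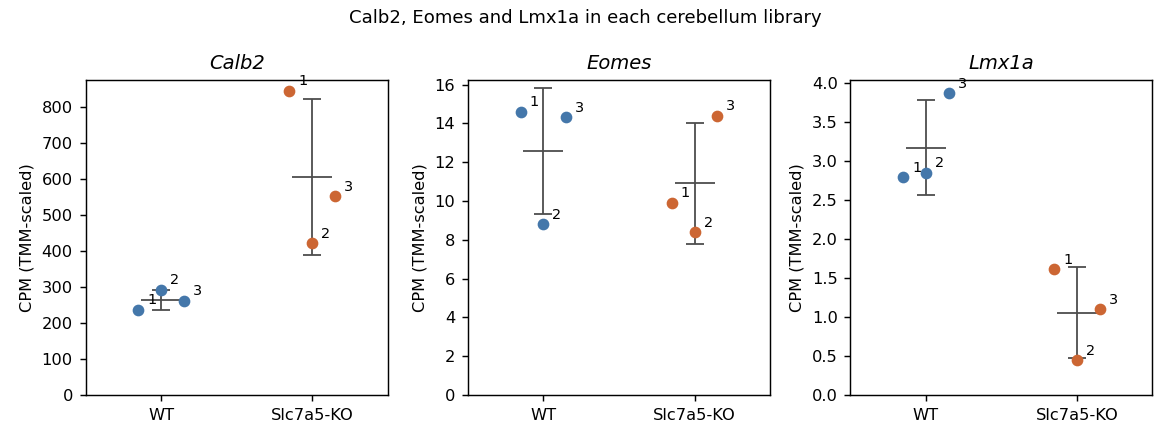
CPM of Calb2, Eomes and Lmx1a in each library (vertical axes, CPM from 0), with points numbered by replicate and the bar giving the mean ± SD of 3 animals. Calb2 lay between 237 and 291 CPM in WT and between 421 and 844 CPM in Slc7a5-KO, Eomes overlapped between the groups, and Lmx1a was below every WT library in Slc7a5-KO.

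Eomes, the more abundant of the 2 unipolar brush cell markers, did not follow Calb2. WT replicates 1 to 3 had 14.6, 8.80 and 14.3 CPM. Slc7a5-KO-labelled replicates 1 to 3 had 9.90, 8.40 and 14.4 CPM. The groups overlapped almost completely, and the library with the most Calb2, Slc7a5-KO replicate 1, had less Eomes than WT replicates 1 and 3. Within WT, the library with the highest Calb2 level, replicate 2, had the lowest Eomes level. Means were 12.6 ± 3.27 and 10.9 ± 3.12 CPM (SD, n = 3 each), and the log2 value was -0.21 ± 0.28 (edgeR adjusted p = 0.97). The authors' deposited table gave -0.14 shrunken and -0.22 unshrunken, with an adjusted p of 0.82.

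Lmx1a was scarce and stood lower, not higher, in the Slc7a5-KO-labelled libraries. WT replicates 1 to 3 had 2.79, 2.85 and 3.87 CPM, from 79 to 107 reads. Slc7a5-KO-labelled replicates 1 to 3 had 1.61, 0.448 and 1.10 CPM, from 52, 12 and 15 reads. The groups did not overlap, and Slc7a5-KO replicate 2 was the lowest. Non-overlap with Slc7a5-KO below WT held for 5.54% of all genes tested, and in either direction for 11.5%. The log2 fold change was -1.58 ± 0.60 and was not called (edgeR adjusted p = 0.70), nor was Lmx1a past the threshold in the authors' deposited table (adjusted p of 0.15).

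Lmx1a is also made by choroid plexus epithelium and by midbrain dopamine neurons, so levels of those cells are given beside it. The 15 choroid plexus markers were all below 0 in log2 fold change, with a median of -0.79, and summed to 3785 to 8052 CPM in WT and 294 to 6457 CPM in Slc7a5-KO. None was called by the edgeR or DESeq2 fits made here, and 1 had an unadjusted edgeR p under 0.05, as did 6.22% of all genes tested. The authors' deposited table passed 1, Calml4 (adjusted p of 0.010), against 0.9% of the genes with a value there. The 2 with the smallest edgeR p were Calml4 (log2 -1.59 ± 0.40, edgeR adjusted p = 0.29) and Prlr, the prolactin receptor (-0.79 ± 0.54, edgeR adjusted p = 0.93). Slc7a5-KO replicate 2 was lowest both in this sum and in Lmx1a. Slc7a5-KO replicate 3 had a choroid plexus sum of 6457 CPM, inside the WT range, and an Lmx1a level below each WT library. Without Slc7a5-KO replicate 2 the Lmx1a log2 fold change was -1.21 (edgeR adjusted p = 0.81). Slc6a3, the dopamine transporter, reached 61.4 CPM in Slc7a5-KO replicate 3 and at most 3.73 CPM elsewhere, and Lmx1a was not raised in that library. The part of these other cells in the Lmx1a level was not tested. In whole tissue, fewer cells of a type and less RNA per cell cannot be told apart.

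Per kilobase of exon, Calb2 was far above either marker in every library. Mean levels per kilobase were 151 CPM for Calb2, 3.03 for Eomes and 0.934 for Lmx1a in WT, and 347, 2.62 and 0.310 in the Slc7a5-KO-labelled libraries. Calb2 exceeded Eomes by 38.7- to 79.0-fold per kilobase in WT and by 91.3- to 203-fold in Slc7a5-KO, with no overlap. By mean level per kilobase, Calb2 ranked 85 among the 16851 genes tested and Eomes 9402.

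On the log2 scale, Calb2 minus the mean of Eomes and Lmx1a was 5.19, 5.84 and 5.12 in WT replicates 1 to 3. It was 7.69, 7.64 and 7.06 in the Slc7a5-KO-labelled libraries, so the difference between group means was 2.08. Against Eomes alone, group means were 4.41 ± 0.55 and 5.76 ± 0.59 (SD, n = 3 each), 1.35 apart. Calb2 entered both quantities because of its own difference, and they carry no test.

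Against granule neurons, Calb2 was higher in the Slc7a5-KO-labelled libraries while the markers of those cells were not. Calb2 minus the mean log2 CPM of the 20 granule neuron markers was 0.48, 0.40 and 0.49 in WT replicates 1 to 3. It was 1.87, 1.44 and 1.78 in the Slc7a5-KO-labelled libraries. The WT values lay from 0.40 to 0.49, although the absolute Calb2 level and the granule markers both varied between those mice. In each group, the library with the highest granule marker sum was also the one with the most Calb2, at 8147 CPM for WT replicate 2 and 7822 CPM for Slc7a5-KO replicate 1. This was not particular to granule neurons. The 9 other unipolar brush cell genes (915 and 903 CPM) and 11 Purkinje cell markers (7310 and 6149 CPM) also peaked in those 2 libraries. Golgi, Lugaro and molecular layer interneuron markers peaked in WT replicate 1 and Slc7a5-KO replicate 3 instead. Group means of Calb2 minus the granule neuron markers were 0.46 ± 0.05 and 1.70 ± 0.23 (SD, n = 3 each). Their difference of 1.24 was close to the Calb2 log2 fold change itself. Calb2 entered this quantity too because of its own difference, so its separation of the groups carries no test. Eomes on the same scale overlapped between the groups, with means of -3.95 ± 0.60 in WT and -4.06 ± 0.54 in Slc7a5-KO.

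**Figure D2:**
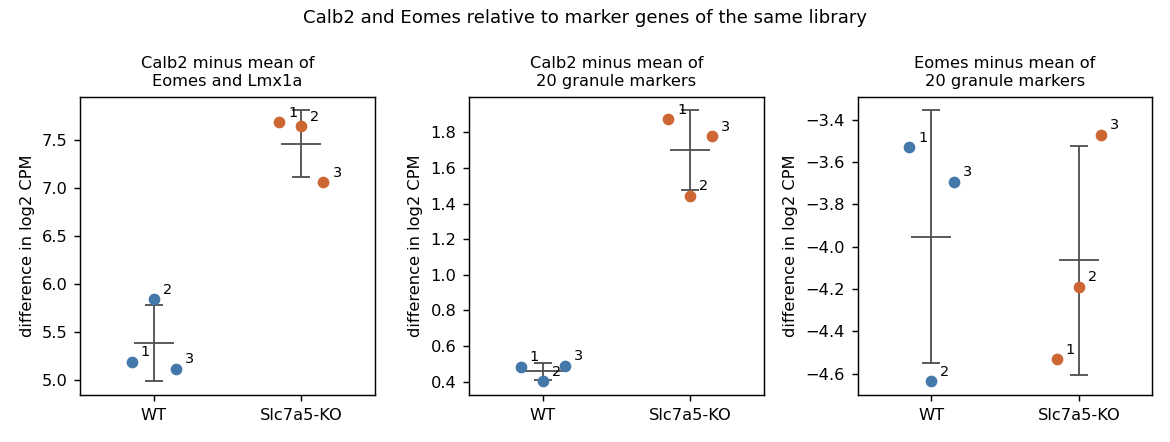
Calb2 and Eomes relative to other genes of the same library, as differences in log2 CPM (vertical axes, which do not start at 0), with points numbered by replicate and bars giving the mean ± SD of 3 animals. Calb2 minus the 20 granule neuron markers was 0.40 to 0.49 in WT and 1.44 to 1.87 in Slc7a5-KO, whereas Eomes minus the same markers overlapped. Calb2 was chosen for its own difference, so its panels carry no test.

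Among the 20 granule neuron markers, 6 were above 0 and 14 below, with a median log2 fold change of -0.10 beside 0.0022 over all genes tested. None was called by edgeR or by DESeq2, none had an unadjusted edgeR p under 0.05, and none separated the groups. Gabra6, a GABA-A receptor subunit specific to granule neurons in the cerebellum, stood at 647, 1075 and 771 CPM in WT and at 816, 441 and 459 CPM in Slc7a5-KO (log2 -0.54 ± 0.26, edgeR adjusted p = 0.83). Barhl2, a homeobox transcription factor, had a value of 0.32 ± 0.19 (edgeR adjusted p = 0.86). Leaving out 1 library moved the median of this list from -0.27 to 0.01.

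The other genes linked to unipolar brush cells were mixed and small in their differences. Of 9 such genes, 8 were tested, 2 were above 0 and 6 below, with a median of -0.15. None was called by edgeR or DESeq2, and 1 (Brinp2) had an unadjusted edgeR p under 0.05, as did 6.22% of all genes tested. Leaving out 1 library moved this median from -0.27 to 0.03. Most of these genes are shared with other cells, so those described are given with a cell type that shares them where one is known.

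Plcb4, a phospholipase that is also strong in Purkinje cells, overlapped between the groups at 315 to 386 CPM in WT and 320 to 396 CPM in Slc7a5-KO (log2 -0.06 ± 0.14, edgeR adjusted p = 0.99). Plcb1 and Brinp2 were above WT in each library labelled Slc7a5-KO. Brinp2, a neuronal gene of the BRINP family, stood at 31.0, 30.8 and 32.0 CPM in WT and at 43.0, 39.8 and 42.8 CPM in Slc7a5-KO (log2 0.42 ± 0.16, edgeR adjusted p = 0.67). Plcb1, a phospholipase found with calretinin in unipolar brush cells and also in other neurons, stood at 39.2, 43.1 and 46.1 CPM in WT and at 46.5, 48.4 and 50.4 CPM in Slc7a5-KO (log2 0.18 ± 0.15, edgeR adjusted p = 0.94). For both genes the groups were apart, as for 5.92% of all genes tested with Slc7a5-KO above WT. Their differences were smaller than that of Calb2. In the other direction, 1 tested gene of the list separated the groups, as did 5.54% of all genes tested.

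Otx2, a homeobox gene shared with choroid plexus, stood at 10.1 to 14.5 CPM in WT and at 11.4, 2.13 and 18.1 CPM in Slc7a5-KO. Its lowest level was in the library that held little choroid plexus, and its log2 fold change was -0.32 ± 0.70 (edgeR adjusted p = 0.99). Prkcd, a protein kinase C gene, and Grp, gastrin-releasing peptide, overlapped between the groups with values of -0.31 ± 0.25 and -0.23 ± 0.46. Scgn, secretagogin, had 0 reads in WT and 2 to 5 reads in each library labelled Slc7a5-KO, and was too low to test.

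**Figure D3:**
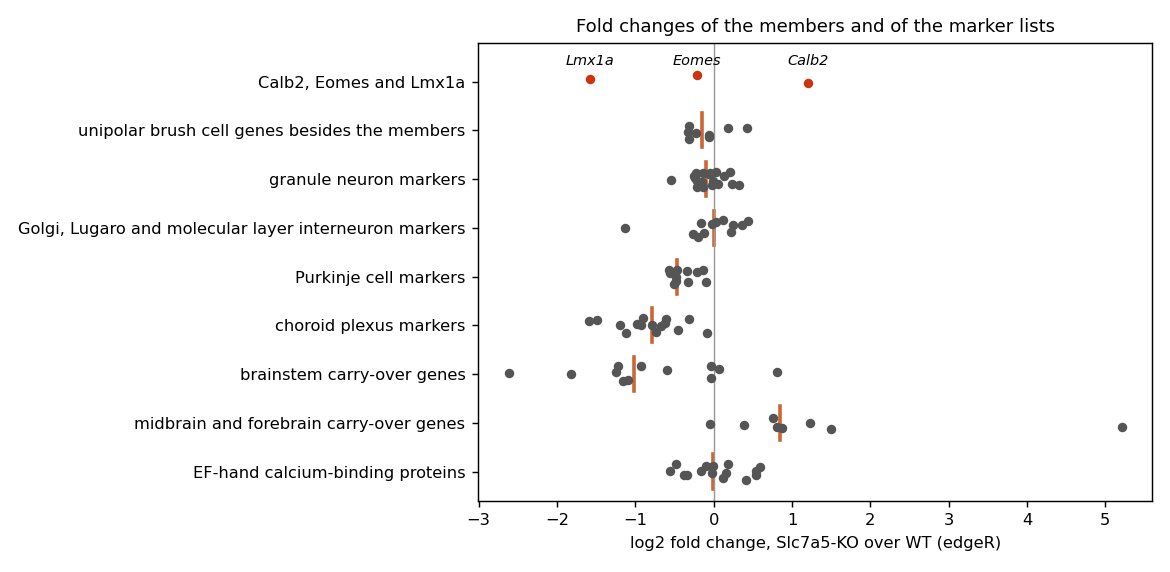
Log2 fold changes (horizontal axis, Slc7a5-KO over WT) of Calb2, Eomes and Lmx1a in red and of each tested gene of 8 marker lists in grey, with an orange bar at each list's median and random vertical scatter. Calb2 at 1.20 lay above each tested unipolar brush cell and granule neuron gene.

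Cells other than granule neurons and unipolar brush cells that hold calretinin, or that dissection could add, are given here for the same reason. Of 12 markers of Golgi, Lugaro and molecular layer interneurons, 6 were above 0 and 6 below, with a median of 0.0056. Neither edgeR nor DESeq2 called any, and 1 had an unadjusted edgeR p under 0.05, as did 6.22% of all genes tested. Nxph1, a secreted ligand of neurexins, and Grm2, a metabotropic glutamate receptor of Golgi cells, had values of 0.44 ± 0.20 (edgeR adjusted p = 0.78) and 0.36 ± 0.20 (edgeR adjusted p = 0.85). The list summed to 1176 to 1456 CPM in WT and 1243 to 1315 CPM in Slc7a5-KO, so its range in Slc7a5-KO lay inside that of WT.

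Brainstem genes, among them hindbrain Hox genes, were low and varied between animals. Of 14 genes, 12 were tested, 10 were below 0, with a median of -1.02, and none was called by edgeR or DESeq2 or had an unadjusted edgeR p under 0.05. Hoxa5 and Hoxb5 had the smallest p, at -2.62 ± 1.54 and -1.83 ± 1.23 (edgeR adjusted p of 0.86 and 0.89). The sum was 14.2 to 55.2 CPM in WT and 14.4 to 61.4 CPM in Slc7a5-KO. Slc7a5-KO replicate 1, with the most Calb2, had a sum of 14.4 CPM, near the lowest of all.

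Midbrain and forebrain genes were above 0 in 7 of 8 tested of 10, with a median of 0.84, and none was called by edgeR or DESeq2 or had an unadjusted edgeR p under 0.05. Slc6a3 and Pou4f1, a homeobox gene of midbrain and sensory neurons, had the smallest p, at 5.21 ± 2.37 and 1.23 ± 0.80 (edgeR adjusted p of 0.85 and 0.89). The sum was 57.6 to 93.7 CPM in WT and 74.7, 106 and 232 CPM in Slc7a5-KO replicates 1 to 3. In Slc7a5-KO replicates 2 and 3 the sum was above each WT library. In replicate 1, which had the most Calb2, it lay inside the WT range. The part of these tissues in the Calb2 level was not tested.

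Calretinin's relatives stood on both sides of 0. Of 17 EF-hand calcium-binding protein genes, 15 were tested, 7 were above 0 and 8 below, with a median of -0.01. Neither the edgeR nor the DESeq2 fit made here called any, and 7 had an unadjusted edgeR p under 0.05, 3 of them higher, against 6.22% of all genes tested. The authors' deposited table passed 3, Necab3 and Hpcal4 (higher, adjusted p of 0.0029 and 0.010) and Pvalb (lower, 0.031), against 0.9% of the genes with a value there. Calb1, which encodes calbindin, the buffer of Purkinje cells and the closest of the listed relatives, stood at 585, 861 and 648 CPM in WT and at 620, 346 and 462 CPM in Slc7a5-KO (log2 -0.55 ± 0.19, edgeR adjusted p = 0.66). Pvalb, the buffer of Purkinje cells and molecular layer interneurons, stood at 337, 441 and 330 CPM in WT and at 289, 264 and 242 CPM in Slc7a5-KO (log2 -0.48 ± 0.14, edgeR adjusted p = 0.47). Calb1 overlapped between the groups. Pvalb lay below WT without overlap, as did 5.54% of all genes tested. Of the 3 buffers used to tell cerebellar neurons apart, only Calb2 stood above WT.

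These Purkinje values are part of a list in which all 11 genes were below 0, with a median of -0.47. None was called by edgeR, 6 had an unadjusted edgeR p under 0.05 (6.22% of all genes tested), and DESeq2 called 2, Rgs8 and Icmt (0.299% of all genes). The authors' deposited table passed 4, all lower, namely Rgs8, Icmt, Homer3 and Pvalb (0.9% of genes there). The smallest p values belonged to Rgs8, a regulator of G-protein signalling (log2 -0.57 ± 0.13, edgeR adjusted p = 0.22), and Icmt, a protein methyltransferase (-0.48 ± 0.12, edgeR adjusted p = 0.29). The list summed to 6025 to 7310 CPM in WT and 4214 to 6149 CPM in Slc7a5-KO.

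The 2 EF-hand genes with the smallest p were calcium sensors and stood higher. Hpcal4, a hippocalcin-like sensor, stood at 77.4, 83.9 and 85.6 CPM in WT and at 101, 136 and 123 CPM in Slc7a5-KO (log2 0.54 ± 0.14, edgeR adjusted p = 0.29). Necab3, a neuronal calcium-binding protein, stood at 33.1, 31.9 and 31.4 CPM in WT and at 50.5, 45.6 and 49.0 CPM in Slc7a5-KO (log2 0.59 ± 0.15, edgeR adjusted p = 0.29). Neither overlapped between the groups, as for 5.92% of all genes tested with Slc7a5-KO above WT. Of the 15 EF-hand genes tested, 3 separated the groups in that direction. In the other direction 2 did, beside 5.54% of all genes tested. The order of the libraries labelled Slc7a5-KO in Hpcal4 was the reverse of that in Calb2, with replicate 1 the lowest.

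**Figure D4:**
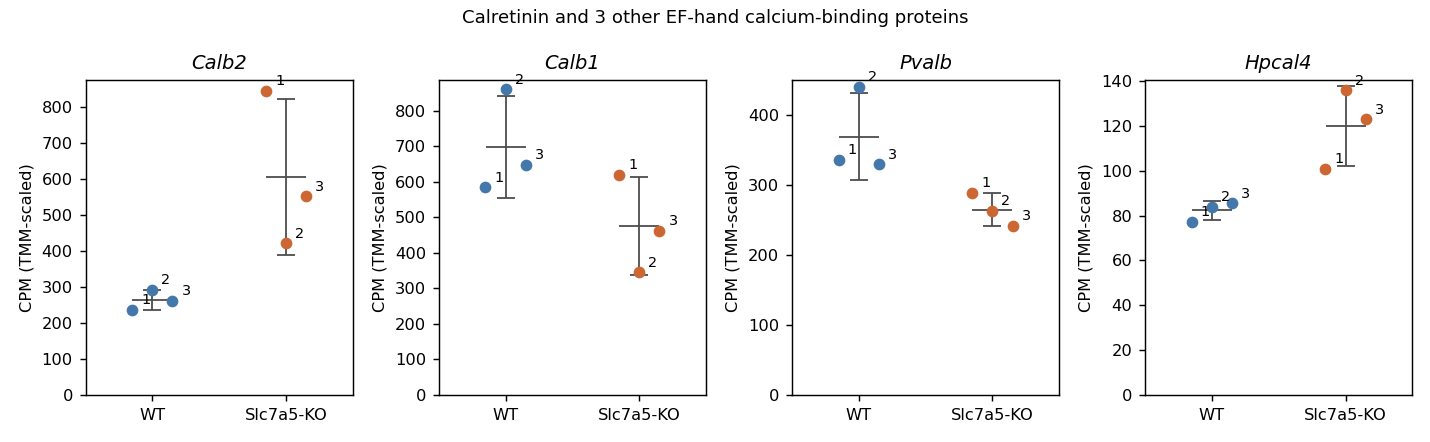
CPM of Calb2 and of the EF-hand genes Calb1, Pvalb and Hpcal4 in each library (vertical axes, CPM from 0), with points numbered by replicate and bars giving the mean ± SD of 3 animals. Calb2 and Hpcal4 were higher in Slc7a5-KO without overlap, as were 5.92% of all genes tested. Pvalb was lower without overlap, as were 5.54%, and Calb1 overlapped.

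The genes whose levels over the 6 libraries were most like those of Calb2 were not markers of a cerebellar cell type. Likeness was measured as Pearson's r of log2 CPM over 6 libraries, among 14692 genes with a mean of at least 1 CPM. The 10 highest were Psph, Egr1, Cdk4, Carmil1, Pxn, Trim32, Maneal, Mfsd11, 1 gene without a symbol and Arpp21, with r of 0.97 to 1.00. All 10 separated the groups without overlap, which a search on the profile of Calb2 favours.

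Psph, phosphoserine phosphatase of serine synthesis, had the highest r, 0.999. It stood at 19.0, 21.8 and 19.9 CPM in WT and at 43.1, 27.6 and 32.0 CPM in Slc7a5-KO (log2 0.76 ± 0.20, edgeR adjusted p = 0.29). Egr1, an activity-induced transcription factor with r of 0.991, stood at 26.7, 28.5 and 25.5 CPM in WT and at 72.8, 38.7 and 53.9 CPM in Slc7a5-KO (log2 1.04 ± 0.20, edgeR adjusted p = 0.068). Both genes had Slc7a5-KO replicate 1 highest and replicate 2 lowest of the 3, as Calb2 did, an order that the search on its profile also favours. The other 8 had log2 fold changes of 0.14 to 0.38.

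Eomes and Lmx1a had r of -0.29 and -0.53 with Calb2, ranking 10673 and 12912 of 14692. Among the other unipolar brush cell genes r reached 0.93 for Brinp2, with a median of 0.09. Among the 20 granule neuron markers the median was 0.17 and the range -0.22 to 0.88. The groups differ in Calb2, so r mostly reflects how a gene differed between them.

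**Figure D5:**
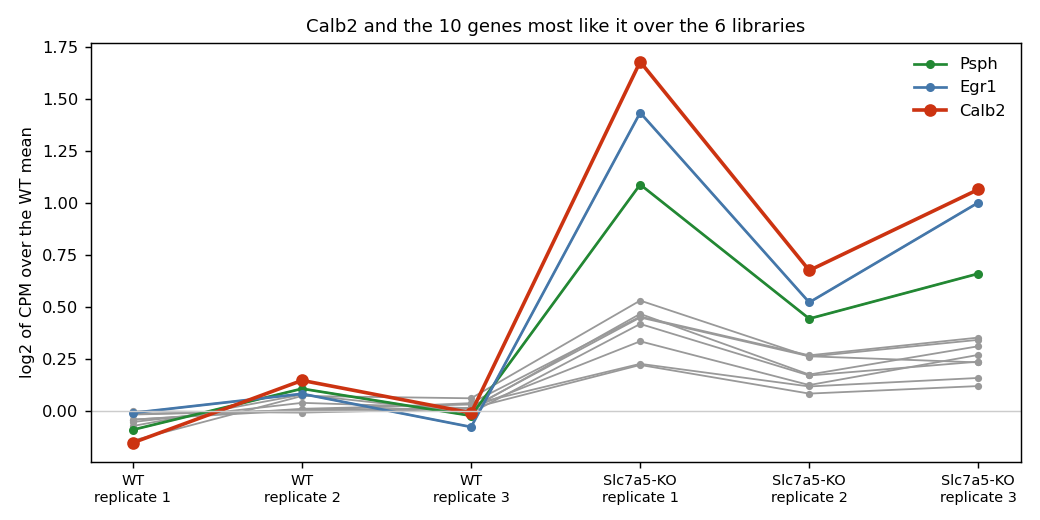
Level of Calb2 (red) and of the 10 genes most like it, as log2 of CPM over the WT mean (vertical axis), with 1 line per gene joining the 6 libraries and Psph and Egr1 coloured. All lines were near 0 in WT and above it in Slc7a5-KO, with replicate 1 highest, which a search on the profile of Calb2 favours.

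Calb2 (ENSMUSG00000003657.8) lies on GRCm38 chromosome 8 from 110137502 to 110168210 on the minus strand, the same chromosome as Slc7a5, which begins 11712940 bases further on. Eomes (ENSMUSG00000032446.14) lies on chromosome 9 from 118478212 to 118486132 and Lmx1a (ENSMUSG00000026686.14) on chromosome 1 from 167689237 to 167848741, both on the plus strand. All 3 are protein-coding. No annotated gene overlaps Calb2 or Lmx1a, and Gm33460 overlaps Eomes on the other strand. Antisense reads were 0.0716% of the Calb2 reads and 0.68% of the Eomes reads.

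Because the floxed allele differs in dose between the groups, the genes between Calb2 and Slc7a5 were described as well. Of 90 tested, 48 were above 0 and 42 below, with a median of 0.03. No call came from edgeR, and DESeq2 called 2, Dynlrb2 and Aars (0.299% of all genes). The authors' deposited table passed 3 of the 82 with a value, those 2 and Terf2ip (0.9% of genes there). The groups did not overlap for 14 (15.6%, beside 11.5% of all genes tested). At an unadjusted p under 0.05 there were 9, 6 of them higher, or 10% beside 6.22% of all genes. The smallest p belonged to Dynlrb2, a dynein light chain, at 5.62, 3.71 and 4.41 CPM in WT and at 0.711, 0.56 and 1.40 CPM in Slc7a5-KO (log2 -2.40 ± 0.53, edgeR adjusted p = 0.19). Aars, the alanine tRNA synthetase and a target of the amino acid response, followed at 0.50 ± 0.12 (edgeR adjusted p = 0.29). The part of this chromosomal position in the Calb2 level was not tested.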

How the data were processed

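The authors deposited raw read counts per gene for each of the 6 libraries. Per the submitters' processing notes, STAR 2.5.4 and GRCm38 (mm10) were used, with no annotation release or duplicate removal stated in what was read here. Reverse-strand counts were used, which held 94.8% to 95.8% of stranded reads. Reads without a single gene, 19.5% to 22.2% of those aligned, were kept out of library sizes and tests. The authors' deposited table gives a mean normalised signal, log2 fold changes, a Wald score and p-values. The submitters' processing notes name DESeq2 1.10.1 and R 3.2.4.

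Symbols were matched for 46488 of 46983 identifiers, and coordinates and exon lengths come from GENCODE M21 on GRCm38. Low genes were removed by filterByExpr (count of 10, total of 15), and TMM-scaled counts went into the robust, 2-sided quasi-likelihood test of edgeR 4.0.16 (limma 3.58.1, R 4.3.3), with group as the only term and Benjamini-Hochberg adjustment over all genes tested. The biological coefficient of variation was 31.6%. Log2 CPM used a prior count of 2. The test was checked on simulated data. Sex was read from Xist and 4 Y-linked genes.

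The 3 members and the 8 lists were chosen with earlier results of these data known. Named genes are the members, the 9 unipolar brush cell genes (2 of them counted in the list but not reported here by name), the 2 genes with the smallest p of each list and of the genes between Calb2 and Slc7a5 (none passed by edgeR), the 10 most like Calb2, and Slc7a5. Genes named outside this rule (Calb1, Pvalb, Homer3 and Terf2ip) were picked with their values in view. The alternatives were DESeq2 1.42.0, its size factors, no filter, both strands, a replicate block, a sex term, another prior count and leaving out each library. Same-numbered libraries are from different mice, and the labels do not say whether the numbers pair them in any other way.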

Additional observations from a re-analysis of the deposited data

Results flagged for a closer look

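The Eomes difference, Slc7a5-KO against WT, ran in opposite directions in the 2 sexes in every library. Among females it stood at 8.80 CPM in the WT library and at 9.90 and 14.4 CPM in those labelled Slc7a5-KO. Among males it stood at 14.6 and 14.3 CPM in WT and at 8.40 CPM in the library labelled Slc7a5-KO. The interaction of sex and group, chosen after the data were seen, was -1.24 on the log2 scale, males against females, and did not pass (edgeR adjusted p = 0.61). The male Slc7a5-KO library is replicate 2, which also held little choroid plexus, so sex and that library cannot be told apart here. For Calb2 and Lmx1a the interaction was -0.50 (edgeR adjusted p = 0.72) and -1.83 (edgeR adjusted p = 0.79).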

How the results depend on the processing

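No direction of Calb2, Eomes or Lmx1a reversed under the alternatives run. Calb2 passed the threshold with DESeq2 (log2 fold change 1.20, adjusted p = 1.1e-06), without a filter on low counts (1.20, edgeR adjusted p = 4.6e-13) and with a sex term (1.01), and did not with DESeq2-type size factors in edgeR or both strands together. The counts of all genes called were 45, 71 and 16 under those 3 settings against 8. Leaving out 1 library gave 0.88 to 1.40 for Calb2, -0.46 to -0.06 for Eomes, -2.07 to -1.21 for Lmx1a and 3 to 20 genes called. Eomes and Lmx1a passed under none of these. With the replicate block, Calb2 had 1.15 (edgeR adjusted p = 0.18), Eomes -0.21, Lmx1a -1.73 and 6 genes were called. Deviations of same-numbered libraries did not go together (correlations of -0.06 to -0.03), so no pairing by number was seen. With 1 library left out, the difference between group means stayed between 1.95 and 2.31 for Calb2 minus the mean of Eomes and Lmx1a. For Calb2 minus the granule neuron markers, that difference stayed between 1.15 and 1.37. Why the filter and the test moved the Calb2 call was not tested. With 3 mice per group and 12 to 107 reads per library for Lmx1a, small differences in that gene were not detectable, and reads mapping to several places were not counted.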
